A study of Mus musculus with 23 samples.

Results

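The comparison of oxidized with native alpha1-antitrypsin rests on 10 lung RNA-seq libraries of the 23 in the series, 5 from mice given the oxidized protein and 5 from mice given the native protein. They were chosen by the labels alone. All mice were male Balb/c, the labels give neither age nor genotype beyond the strain, and 1 library was made from the lung of each mouse. Both groups breathed nebulized LPS, a lipopolysaccharide of bacterial cell walls, at 0.21 mg/ml in 3 daily exposures of 10 min. At 1 h after each exposure they received alpha1-antitrypsin (AAT) into the peritoneum at 4 mg/kg, either native (LPS+nAAT, mice 4101 to 4105) or oxidized (LPS+oxAAT, mice 5101 to 5105), and the experiment ended 6 h after the third AAT dose. Levels from 5 mice given LPS and saline (LPS) and 3 mice that breathed clean air and received saline (air) are given for reference. The 5 remaining libraries, from mice given recombinant AAT, entered the fit through the shared estimate of the spread, the choice of genes tested and the scaling. The LPS and air libraries entered it in the same ways. The labels do not state the source or the oxidant of the oxidized protein, nor how many litters or cages the mice came from.

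AAT is a plasma protein of the serpin family that blocks neutrophil elastase, an enzyme that neutrophils release in inflamed lung. The inhibitory loop of AAT holds methionines, and their oxidation is known to weaken the inhibition of elastase, so oxidized AAT is generally regarded as a weak elastase inhibitor; its activity is not among the data used here. LPS acts through Toll-like receptor 4 on macrophages and epithelium, which then make chemokines such as Cxcl1 and Cxcl2 that bring neutrophils into the airspace. The comparison asks in which lung transcripts mice given the oxidized form differed from mice given the native form under the same LPS exposure.

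Libraries held 21405353 to 41383482 gene counts in LPS+nAAT and 24506136 to 38045445 in LPS+oxAAT. Transcripts of alveolar type 2 cells, which mark lung tissue, summed to at least 37786 CPM (counts scaled to a common library size, per 1e+06 counts) in each of the 10 libraries. The libraries fall into 2 sets by a ratio of mitochondrial reads, called strand sets here as a name only. The labels name no such sets and do not say whether preparation or counting differed. Reads of mt-Nd6, the mitochondrial gene coded on the strand opposite to its neighbours, were 0.338% to 1.14% of those of mt-Nd5 in 15 libraries (the first set) and 3.39% to 4.5% in 8 libraries (the second set). All LPS+nAAT libraries and oxAAT mice 5101 (0.388%) and 5102 (0.825%) are in the first set, whereas oxAAT mice 5103 (4.31%), 5104 (4.22%) and 5105 (3.75%) are in the second. Strand set and treatment are therefore partly confounded over the 5 against 5 mice. Values below are over all libraries unless they are said to be of the first set, which compares mice 5101 and 5102 alone with the 5 LPS+nAAT mice.

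Over all libraries 59 of 17148 genes passed an adjusted p of 0.05 (0.344% of genes, edgeR quasi-likelihood F test with Benjamini-Hochberg adjustment), 37 higher in LPS+oxAAT (0.216%) and 22 lower (0.128%). The genes that fell hold the calgranulins S100a8 and S100a9, the survival factor gene Bcl2l1, several receptors of myeloid cells and genes of the mitotic spindle. Those that rose hold the transcription factor genes Meis1, Nr2f2, Foxp1, Ahr, Gata3 and Sox4, the neutrophil chemokine gene Cxcl2, and a group of transcripts that lie opposite other genes. In the first set alone 2 of 17179 genes passed (0.0116%), Meis1 higher and AA986860 lower (0.00582% in each direction), and 6.71% of genes had an unadjusted p under 0.05, compared with 11.8% over all libraries. Of the 22 genes called lower over all libraries, 22 had a negative estimate in the first set, and 29 of the 30 higher genes tested there had a positive one; the mice of the first set are part of the comparison over all libraries, so that count is a description. Levels of the 5 oxAAT mice lay wholly below those of the 5 nAAT mice for 18 of the 22 lower genes and wholly above for 22 of the 37 higher genes, while 2.35% of all genes tested did not overlap, 1.03% being higher and 1.32% lower in the oxAAT mice. The genes were called on the levels of these same mice, so the counts without overlap are a description too.

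Meis1, Nr2f2 and Bcl2l1 stand out among the 48 called genes that have a symbol and are no predicted gene, because they alone passed in each of the 10 fits that left out 1 of these mice. Each of those fits kept oxAAT mice of the second set, so they cannot separate strand set from treatment. With strand set as a term in the edgeR fit only Meis1 passed (adjusted p = 0.0130), and Nr2f2 and Bcl2l1 did not (adjusted p = 0.214 and 0.0894). Meis1, a homeobox transcription factor of blood stem cells and endothelium (chr11:18879817-19018985, GRCm38, minus strand), was the only gene called in both analyses. Its level was 72.5, 80.2, 71.4, 65.6 and 62.3 CPM in oxAAT mice 5101 to 5105, against 49.0, 48.9, 45.4, 43.5 and 41.4 CPM in nAAT mice 4101 to 4105. Every oxAAT mouse was above every nAAT mouse, and the 2 highest were the mice of the first set. The log2 fold change of Meis1 was 0.62 ± 0.09 (SE; adjusted p = 0.00362) over all libraries and 0.75 ± 0.10 in the first set (adjusted p = 0.00886). LPS mice had 66.1 ± 3.51 CPM (SD, n = 5) and air mice 81.8 ± 5.75 CPM (SD, n = 3). Set against LPS mice, Meis1 was lower in LPS+nAAT by 0.53 (log2 fold change -0.53, adjusted p = 0.00932), and the estimate in LPS+oxAAT was 0.09 (adjusted p = 0.603). Both of these comparisons share the LPS mice. The level in the oxAAT mice thus lay near that of LPS mice, and the nAAT mice were the low group.

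Nr2f2, which encodes the nuclear receptor COUP-TFII of venous endothelium and mesenchyme (chr7:70351944-70366735, minus strand), showed a different order. It measured 78.8, 81.7, 116, 91.9 and 104 CPM in the oxAAT mice and 60.8, 55.4, 56.1, 55.3 and 52.7 CPM in the nAAT mice. The groups did not overlap, and the mice of the second set were the 3 highest. The log2 fold change was 0.75 ± 0.10 (SE; adjusted p = 0.00118) over all libraries, and 0.53 ± 0.11 (adjusted p = 0.163) in the first set. LPS mice, at 58.4 ± 7.45 CPM (SD, n = 5), lay with the nAAT mice: the log2 fold change against LPS was -0.06 for nAAT (adjusted p = 0.821) and 0.69 for oxAAT (adjusted p = 0.000767).

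Bcl2l1, the gene of the anti-apoptotic protein Bcl-xL (chr2:152780668-152831728, minus strand), moved the other way. Oxidized AAT gave 91.5, 113, 111, 115 and 126 CPM and native AAT 194, 184, 163, 177 and 201 CPM. No mouse of either group reached into the range of the other, with a gap between 126 and 163 CPM. Its log2 fold change was -0.72 ± 0.12 (SE; adjusted p = 0.00918) over all libraries. In the first set the estimate was -0.83 ± 0.15 (adjusted p = 0.052). LPS mice had 167 ± 27.5 CPM (SD, n = 5) and air mice 114 ± 5.53 CPM (SD, n = 3), so the oxAAT mice sat at the level of mice without LPS. Against LPS the log2 fold change was 0.14 with nAAT (adjusted p = 0.592) and -0.58 with oxAAT (adjusted p = 0.00581).

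Sla and Rgcc were also lower in every oxAAT mouse than in every nAAT mouse. Sla, an adaptor that dampens antigen receptor signalling, measured 46.0, 56.4, 57.5, 51.5 and 52.2 CPM in the oxAAT mice and 85.2, 87.2, 82.5, 94.0 and 79.2 CPM in the nAAT mice, and its log2 fold change was -0.70 ± 0.12 (adjusted p = 0.0197). Its first-set estimate was -0.73 (adjusted p = 0.0741). Rgcc, a cell cycle regulator of endothelium, measured 59.8, 60.0, 60.5, 75.0 and 87.7 CPM with oxidized AAT and 133, 124, 117, 146 and 157 CPM with native AAT. It fell by 0.98 (SE 0.20, adjusted p = 0.0373), with a first-set estimate of -1.17 (adjusted p = 0.052). LPS and air mice averaged 73.5 ± 9.88 and 50.3 ± 5.53 CPM for Sla and 113 ± 23.5 and 106 ± 27.4 CPM for Rgcc (SD, n = 5 and 3), so the oxAAT mice were near the air level for Sla and below both groups' means for Rgcc. Sla kept its call in 7 of the 10 fits that left out a mouse and Rgcc in 2. Tent5b, which encodes a non-canonical poly(A) polymerase, spanned 22.7 to 25.6 CPM in the oxAAT mice and 28.2 to 55.6 CPM in the nAAT mice, with a log2 fold change of -0.90 ± 0.18 (adjusted p = 0.0373) and of -0.93 in the first set (adjusted p = 0.261).

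**Figure D1:**
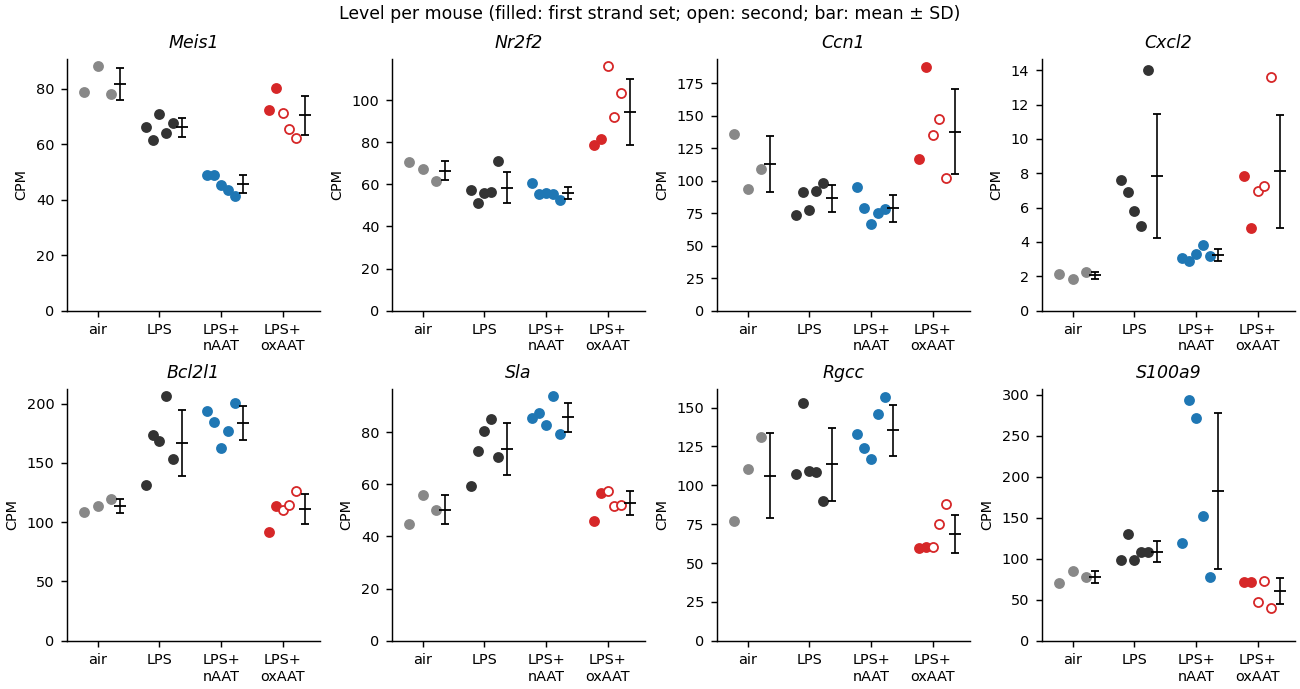
Level of 8 called genes in each mouse, in CPM on an axis that starts at 0, by group. Filled points are libraries of the first strand set and open points those of the second, and the black bar is the group mean ± SD. Meis1, Nr2f2, Ccn1 and Cxcl2 are higher in all 5 oxAAT mice than in all 5 nAAT mice, and Bcl2l1, Sla, Rgcc and S100a9 are lower in all 5.

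Among markers of neutrophils 3 of 20 genes were called lower in the oxAAT mice (S100a9, S100a8 and Clec4d) and none higher, against 0.128% of all genes called lower. The list's median log2 fold change was -0.56, and that of all genes tested was 0.00. At an unadjusted p under 0.05, 12 of the 20 were lower, compared with 5.77% of all genes. None was called in the first set, 7 were lower at that p, where 2.99% of all genes were, and the median was -0.51. S100a8 and S100a9 encode the calgranulins, calcium-binding proteins that make up much of the cytosol of neutrophils. S100a9 (chr3:90692632-90695721, minus strand) measured 71.8, 71.9, 47.7, 72.3 and 39.5 CPM in the oxAAT mice, and 119, 294, 272, 153 and 78.1 CPM in the nAAT mice. The groups did not overlap, but nAAT mouse 4105 lay close to the highest oxAAT mice, and mice 4102 and 4103 were far above the rest. The log2 fold change of S100a9 was -1.59 ± 0.31 (adjusted p = 0.0373), and its first-set estimate was -1.34 ± 0.41 (adjusted p = 0.484). S100a8 (chr3:90668978-90670035, plus strand) measured 29.1, 23.8, 20.4, 30.0 and 18.4 CPM against 45.0, 128, 95.7, 46.3 and 28.0 CPM, an overlap by nAAT mouse 4105 alone. Its log2 fold change was -1.50 ± 0.32 (adjusted p = 0.0495), and -1.37 ± 0.50 in the first set (adjusted p = 0.627). S100a8 kept its call in 1 of the 10 fits that left out a mouse, the fit without nAAT mouse 4105, and S100a9 in 4, those without nAAT mouse 4101 or 4105 or without oxAAT mouse 5101 or 5102. The estimates in these fits ran from -1.70 to -1.14 for S100a8 and from -1.79 to -1.36 for S100a9, each weakest without nAAT mouse 4102. In an edgeR fit of the 2 groups alone, S100a9, S100a8 and Clec4d did not pass (adjusted p = 0.178, 0.227 and 0.124). These edgeR calls thus depended on keeping the other groups in the fit. With a replicate block on the last digit of the mouse number, S100a9 and S100a8 did not pass (edgeR, adjusted p = 0.081 and 0.109). Clec4d did (adjusted p = 0.0483). All 3 passed with DESeq2's Wald test and with limma voom.

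Other neutrophil genes had like estimates without passing. Mmp8, neutrophil collagenase, measured 2.84 to 4.22 CPM in the oxAAT mice and 4.27 to 20.4 CPM in the nAAT mice (log2 fold change -1.30, adjusted p = 0.0637). Cxcr2, the receptor that neutrophils use to follow Cxcl1 and Cxcl2, had a log2 fold change of -0.71 (adjusted p = 0.147), and Csf3r, the receptor of granulocyte colony-stimulating factor, one of -0.52 (adjusted p = 0.314). Lrg1 at 0.01 and Mmp9 at -0.08 (adjusted p = 0.992 and 0.896) had estimates near 0. Summed over the 20 markers, the oxAAT mice had 639, 689, 536, 609.8 and 501 CPM and the nAAT mice 806, 1153, 974, 753 and 656 CPM. LPS mice spanned 635 to 772 CPM and air mice 451 to 504 CPM. In a whole lung, fewer neutrophils and less RNA of these genes per neutrophil cannot be told apart.

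The promoters of the calgranulins are shown because the 2 genes lie near each other on chromosome 3 and fell together. Each is the 250 bases before the RefSeq start on GRCm38.p6, 5′ to 3′, with matches to the C/EBP motif TTNNGNAA or its reverse complement in capitals. C/EBP proteins are transcription factors of the granulocyte lineage.
S100a9 (chr3:90695722-90695971, minus strand): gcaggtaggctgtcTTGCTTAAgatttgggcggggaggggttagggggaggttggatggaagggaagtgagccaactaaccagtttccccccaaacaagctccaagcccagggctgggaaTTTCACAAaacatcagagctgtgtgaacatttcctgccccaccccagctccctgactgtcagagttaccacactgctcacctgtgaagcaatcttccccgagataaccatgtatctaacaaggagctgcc
S100a8 (chr3:90668821-90669070, plus strand): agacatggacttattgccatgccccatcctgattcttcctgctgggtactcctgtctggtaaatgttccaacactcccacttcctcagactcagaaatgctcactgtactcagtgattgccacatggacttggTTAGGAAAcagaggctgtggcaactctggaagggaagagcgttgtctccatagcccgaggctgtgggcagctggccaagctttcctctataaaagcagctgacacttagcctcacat
S100a9 holds 2 matches, starting 236 and 130 bases before the start, and S100a8 holds 1, at 117 bases. The same motif is in 13 of 19 promoters of the neutrophil list (68.4%) and in 36.8% of all 32851 promoters of this length, so a match is common and is a description of these letters only.

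Receptors and enzymes of macrophages and other myeloid cells were among the genes called lower in the oxAAT mice than in the nAAT mice. Clec4d and Clec4n, neighbouring C-type lectin receptors for fungal and mycobacterial sugars on myeloid cells, had log2 fold changes of -0.54 (adjusted p = 0.0385) and -0.52 (adjusted p = 0.0288). Clec4d is the same gene that was counted above among the neutrophil markers. Clec4n spanned 41.2 to 51.9 CPM in the oxAAT mice and 55.0 to 73.4 CPM in the nAAT mice. Fcgr3, the low-affinity receptor for IgG, fell by 0.49 (adjusted p = 0.0485). Pla2g7, the platelet-activating factor acetylhydrolase secreted by macrophages, fell by 0.63 (adjusted p = 0.0262), and Arg2, mitochondrial arginase, by 0.48 (adjusted p = 0.0262). Ctsh, a lysosomal cysteine protease of macrophages and type 2 cells, had the smallest change of the 22 (log2 fold change -0.32, adjusted p = 0.0461) at 272 to 333 CPM against 368 to 383 CPM. None of these genes overlapped between the groups, and each had a first-set estimate of the same sign that did not pass, from -0.26 for Ctsh to -0.56 for Pla2g7. Against LPS mice, Clec4n, Arg2 and Ctsh were higher in LPS+nAAT, by 0.49, 0.43 and 0.33 (adjusted p = 0.0233, 0.0303 and 0.0303). In LPS+oxAAT their estimates were -0.02, -0.05 and 0.007 (adjusted p = 0.926, 0.807 and 0.969). Clec4d, Fcgr3 and Pla2g7 passed in neither comparison with LPS, at 0.34, 0.31 and 0.35 for nAAT and -0.20, -0.17 and -0.28 for oxAAT. Both comparisons share the LPS mice.

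Among 16 markers of alveolar macrophages, 1 was called lower and none higher, where 0.128% of all genes were called lower, and the median log2 fold change was -0.25. At an unadjusted p under 0.05, 5 of 16 were lower, against 5.77% of all genes, and in the first set 4 were, against 2.99%, with none called and a median of -0.26. The called gene was Pparg, the nuclear receptor that alveolar macrophages need to mature. It measured 9.48, 13.6, 10.6, 12.1 and 12.4 CPM in the oxAAT mice and 18, 16.9, 16.2, 23.3 and 15.1 CPM in the nAAT mice. Each nAAT mouse was above each oxAAT mouse and above the LPS mean of 12.6 ± 1.95 CPM (SD, n = 5). Its log2 fold change was -0.62 ± 0.13 over all libraries (adjusted p = 0.0407) and -0.62 in the first set (adjusted p = 0.441). Marco, a scavenger receptor for bacteria, measured 6.44 to 13.6 CPM against 10.2 to 23.1 CPM (log2 fold change -0.77, adjusted p = 0.165). Summed over the list, the oxAAT mice spanned 1208 to 1592 CPM and the nAAT mice 1568 to 1943 CPM, with an overlap of oxAAT mouse 5102 and nAAT mouse 4105.

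All 22 genes of the mitosis list had a negative estimate, from -0.62 to -0.13, with a median log2 fold change of -0.49. At an unadjusted p under 0.05, 20 of 22 were lower, against 5.77% of all genes. Only 1 of 22 passed adjustment over all genes, where 0.128% of all genes were called lower. That gene was Tpx2, which nucleates spindle microtubules. It measured 8.72, 10.4, 8.20, 9.19 and 11 CPM in the oxAAT mice and 11.1, 16.5, 14.1, 12.4 and 15.4 CPM in the nAAT mice. The groups were separated by the narrow step between oxAAT mouse 5105 and nAAT mouse 4101, and Tpx2 fell by 0.55 (SE 0.12, adjusted p = 0.0485). In the first set the list's median was -0.55, with 19 of 22 lower at an unadjusted p under 0.05 and none called, where 2.99% of all genes were lower at that p.

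Among the members that did not pass, Ccnb2, a cyclin of mitotic entry, had a log2 fold change of -0.62 (adjusted p = 0.0627). The kinase gene Cdk1 had -0.49 (adjusted p = 0.0637), and Cdc20, an activator of the anaphase-promoting complex, had -0.50 (adjusted p = 0.0627). Mki67, the proliferation antigen, measured 34.4 to 39.5 CPM in the oxAAT mice and 41.7 to 70.3 CPM in the nAAT mice (log2 fold change -0.52, adjusted p = 0.0841). Of the list, 8 genes lay wholly lower in the oxAAT mice, compared with 1.32% of all genes tested. Summed over the 22 genes, the oxAAT mice had 211, 217, 209, 232 and 266.7 CPM and the nAAT mice 266.8, 386, 319.8, 311 and 289 CPM. The highest oxAAT mouse, 5105, and the lowest nAAT mouse, 4101, met at the same level, while LPS mice spanned 178 to 234 CPM and air mice 88.0 to 104 CPM. Against LPS mice, 14 of the 22 genes were called in nAAT mice, where 0.595% of all genes were called, and 1 of 22 in oxAAT mice, where 4.71% were. Both of those comparisons share the LPS mice.

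Knstrn, Racgap1 and Ncaph, which are outside that list, were also called lower. Knstrn encodes a kinetochore and spindle protein, and measured 7.36, 7.27, 7.43, 6.92 and 8.71 CPM in the oxAAT mice against 10.3, 13, 11.2, 11.1 and 10.5 CPM in the nAAT mice (log2 fold change -0.58, adjusted p = 0.0262, and -0.61 in the first set with an adjusted p of 0.376). The LPS mean was 7.55 ± 0.235 CPM (SD, n = 5), so the oxAAT mice lay at the LPS level. Racgap1, a part of the central spindle at cell division, fell by 0.54 with an overlap of oxAAT mouse 5105 and nAAT mouse 4101 (adjusted p = 0.0495), and Ncaph, a condensin subunit, by 0.43 (adjusted p = 0.0495). Their first-set estimates were -0.59 and -0.42 (adjusted p = 0.441 and 0.55). Cdkn1b, which encodes the cyclin-dependent kinase inhibitor p27, was called higher, at 89.1 to 129 CPM against 69.4 to 81.2 CPM (log2 fold change 0.52, adjusted p = 0.0461), with a first-set estimate of 0.29 (adjusted p = 0.741). Of 24 genes of the G1/S step and DNA replication none was called, 23 had a negative estimate and the median log2 fold change was -0.23. There, 12 of 24 had an unadjusted p under 0.05, all of them lower, against 5.77% of all genes. At that p 10 were lower in the first set, against 2.99%, and the median was -0.30.

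Promoters of 2 of these genes are shown, with the CCAAT box and the TTTGAA element of cell cycle genes in capitals on either strand.
Racgap1 (chr15:99651657-99651906, minus strand): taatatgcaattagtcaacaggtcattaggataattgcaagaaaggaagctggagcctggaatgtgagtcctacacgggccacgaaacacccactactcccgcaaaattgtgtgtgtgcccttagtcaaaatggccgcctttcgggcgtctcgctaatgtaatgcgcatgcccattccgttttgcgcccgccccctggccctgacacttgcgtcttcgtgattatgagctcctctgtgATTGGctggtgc
Ccnb2 (chr9:70421555-70421804, minus strand): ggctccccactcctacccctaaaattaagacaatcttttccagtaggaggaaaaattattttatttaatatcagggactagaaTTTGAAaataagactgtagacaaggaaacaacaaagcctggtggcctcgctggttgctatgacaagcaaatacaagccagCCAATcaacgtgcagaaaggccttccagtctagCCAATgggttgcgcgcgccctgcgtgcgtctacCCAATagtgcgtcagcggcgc
Ccnb2 holds 3 CCAAT boxes, at 87, 54 and 21 bases before the start, and TTTGAA once, at 167 bases. Racgap1 holds 1 CCAAT box on the opposite strand, at 12 bases, and no TTTGAA in this window. The CCAAT box is in 16 of 19 promoters of the mitosis list (84.2%) and in 33.8% of all promoters, and TTTGAA in 36.8% and 16% of them. The groups' difference in these genes was measured on RNA only.

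**Figure D2:**
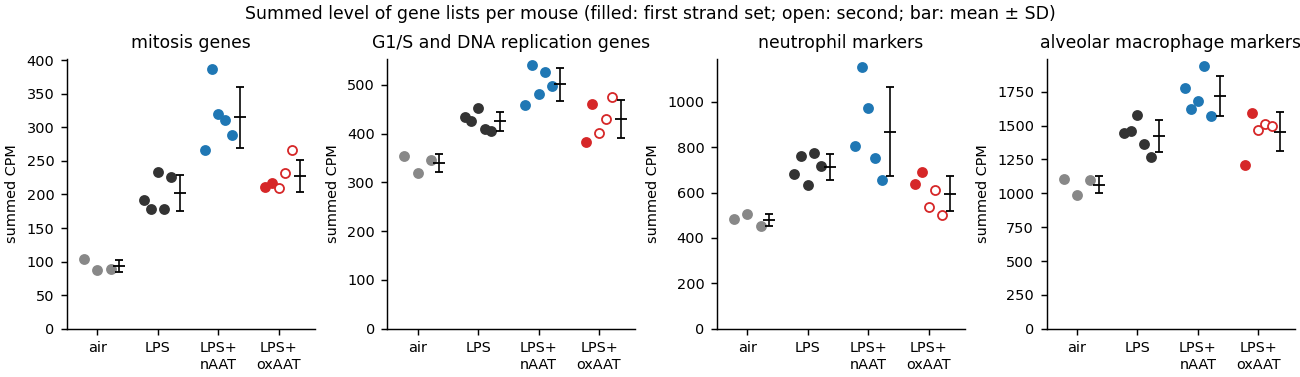
Summed level, in CPM on an axis that starts at 0, of 4 gene lists in each mouse by group, with the mean ± SD as a black bar and open points for the second strand set. For the mitosis list the oxAAT mice lie between 209 and 266.7 CPM and the nAAT mice between 266.8 and 386 CPM.

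Of 23 chemokine genes 1 was called higher in the oxAAT mice, Cxcl2, and none lower, where 0.216% of all genes were called higher, and the median log2 fold change was 0.33. At an unadjusted p under 0.05, 8 of 23 were higher, against 6.06% of all genes. None passed in the first set, where 5 were higher at that p, against 3.73% of all genes, and the median was 0.17. The summed level of the list was 2678, 2900, 3247, 3235 and 2984 CPM in the oxAAT mice and 3515, 2627, 3271, 3459 and 3470.1 CPM in the nAAT mice, which overlap and lean the other way. The most abundant member, the epithelial Cxcl15, had a log2 fold change of -0.23 (adjusted p = 0.544). Cxcl2 (chr5:90903871-90905938, plus strand) encodes the neutrophil chemokine MIP-2. It measured 7.84, 4.81, 6.98, 7.28 and 13.6 CPM in the oxAAT mice and 3.06, 2.87, 3.31, 3.80 and 3.17 CPM in the nAAT mice. All oxAAT mice were above all nAAT mice, with mouse 5105 apart at the top. The log2 fold change was 1.32 ± 0.25 (adjusted p = 0.0262), and 0.97 ± 0.30 in the first set (adjusted p = 0.464), and the call was kept in 2 of the 10 fits that left out a mouse. LPS mice had 7.85 ± 3.61 CPM (SD, n = 5) and air mice 2.07 ± 0.197 CPM (SD, n = 3). Against LPS the log2 fold change was -1.28 with nAAT (adjusted p = 0.0186) and 0.04 with oxAAT (adjusted p = 0.94).

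Other chemokine genes did not pass. Cxcl1 measured 9.08, 13.4, 15.3, 11.8 and 13.9 CPM in the oxAAT mice and 7.39, 4.22, 7.33, 7.36 and 8.87 CPM in the nAAT mice, which did not overlap (log2 fold change 0.86 ± 0.21, adjusted p = 0.0712, and 0.69 in the first set with an adjusted p of 0.676). Cxcl5, a product of epithelium, measured 5.35 to 18.2 CPM against 3.46 to 6.51 CPM (log2 fold change 1.28, adjusted p = 0.103). The interferon-induced Cxcl10 had a log2 fold change of 0.73 (adjusted p = 0.0637). Higher Cxcl2 stood beside lower neutrophil markers in the same mice.

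The promoters of Cxcl2 and Cxcl1, neighbours on chromosome 5, carry the NF-kB motif, here GGG, 3 bases of any kind and TTCC, shown in capitals on either strand. NF-kB is the transcription factor through which LPS induces both genes.
Cxcl2 (chr5:90903649-90903898, plus strand): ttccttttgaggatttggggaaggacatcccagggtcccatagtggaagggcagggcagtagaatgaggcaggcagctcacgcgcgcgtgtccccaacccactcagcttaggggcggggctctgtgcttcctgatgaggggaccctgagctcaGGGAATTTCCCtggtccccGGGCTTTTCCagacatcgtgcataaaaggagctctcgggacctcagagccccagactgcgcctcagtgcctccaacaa
Cxcl1 (chr5:90890995-90891244, plus strand): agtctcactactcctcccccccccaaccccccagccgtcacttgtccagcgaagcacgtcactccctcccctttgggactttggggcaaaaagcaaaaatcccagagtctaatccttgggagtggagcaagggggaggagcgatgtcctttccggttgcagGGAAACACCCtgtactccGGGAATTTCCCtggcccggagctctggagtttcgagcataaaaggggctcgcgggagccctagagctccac
Each holds 3 matches, of which 2 overlap by all but 1 base on opposite strands. In Cxcl2 they start 97, 96 and 78 bases before the start and in Cxcl1 89, 71 and 70 bases before it. The motif is in 6 of 16 chemokine promoters (37.5%) and in 4.65% of all promoters.

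Other lists of inflammatory mediators gave no call. None of 13 cytokine genes, 17 acute phase and antimicrobial genes, 23 type I interferon-stimulated genes or 16 genes of NF-kB subunits and feedback was called, where 0.344% of all genes were. Counting an unadjusted p under 0.05, these lists held 3, 0, 0 and 1 genes, against 11.8% of all genes, and in the first set 3, 1, 0 and 3, against 6.71%. The levels of 1 cytokine gene, Csf1, and 1 gene of the NF-kB list, Tnfaip3, were higher in every oxAAT mouse than in every nAAT mouse, as were those of 1.03% of all genes tested. Their log2 fold changes were 0.33 and 0.12 (adjusted p = 0.0841 and 0.51). Lcn2, the siderophore-binding lipocalin that LPS raises in epithelium, averaged 1139.6 ± 74.4 CPM with oxidized and 1140.1 ± 153 CPM with native AAT (SD, n = 5 each), and the 95% interval of its log2 fold change ran from -0.26 to 0.26. Il1b had an interval from -0.40 to 0.40 and Saa3 one from -0.21 to 0.62. Differences larger than these bounds are outside the intervals, and smaller ones could not be resolved with 5 mice a group.

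Immediate early genes gave no call among 17, where 0.344% of all genes were called. At an unadjusted p under 0.05, 4 were higher, against 6.06% of all genes, and 4 were in the first set, against 3.73%. Egr1, a zinc finger factor induced within minutes of a stimulus, measured 74.1, 56.1, 65.7, 72.8 and 28.3 CPM in the oxAAT mice and 26.1, 26.8, 18.9, 24.9 and 33.9 CPM in the nAAT mice (log2 fold change 1.18 ± 0.27, adjusted p = 0.0637). Mouse 5105 lay within the nAAT range and the other 4 oxAAT mice above it. Fos had a log2 fold change of 0.59 (adjusted p = 0.0637), with no overlap. Zfp36, which encodes tristetraprolin, a protein that speeds the decay of cytokine mRNA, measured 138 to 213 CPM against 95.7 to 127 CPM. Its log2 fold change was 0.54 (adjusted p = 0.0915) over all libraries and 0.80 (adjusted p = 0.168) in the first set.

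Several genes that glucocorticoids induce differed between oxAAT mouse 5105 and the other 4. Of 18 such genes none was called in either analysis. Over all libraries 7 were lower and 1 was higher at an unadjusted p under 0.05, against 5.77% and 6.06% of all genes, with a median log2 fold change of -0.16. Counted in the first set, 7 were lower and 1 higher, against 2.99% and 3.73%, with a median of -0.28. Tsc22d3, which encodes the glucocorticoid-induced leucine zipper, measured 156, 123, 175 and 166 CPM in oxAAT mice 5101 to 5104 and 315 CPM in mouse 5105, against 258, 296, 296, 314 and 278 CPM in the nAAT mice. Per1, a clock gene with glucocorticoid response elements, measured 88.4, 77.1, 113 and 90.3 CPM and then 160.3 CPM in mouse 5105, against 157, 178, 154, 144 and 168 CPM. In both genes mice 5101 to 5104 were below every nAAT mouse and mouse 5105 was within or above the nAAT range.

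Fkbp5, a co-chaperone of the glucocorticoid receptor, measured 30.6, 24.6, 50.9, 41.0 and 51.2 CPM against 48.8, 89.0, 65.1, 87.2 and 62.8 CPM. For Tsc22d3, Per1 and Fkbp5 the log2 fold changes over all libraries were -0.62, -0.60 and -0.83 (adjusted p = 0.217, 0.173 and 0.18). In the first set they were -1.04 ± 0.17, -0.94 ± 0.16 and -1.35 ± 0.24, each with an adjusted p of 0.052, just short of the threshold. That set leaves out mice 5103 and 5104 as well as mouse 5105. Fkbp5 did not set mouse 5105 apart, at 51.2 CPM beside 50.9 CPM in mouse 5103. AA986860, an uncharacterized protein-coding gene (chr1:130731976-130744622, plus strand), had a profile like that of Tsc22d3 and Per1 and is the gene called lower in the first set. It measured 99.2, 78.4, 87.6 and 91.3 CPM in mice 5101 to 5104, 181 CPM in mouse 5105, and 165, 151, 143, 163 and 141 CPM in the nAAT mice. Its log2 fold change was -0.77 ± 0.11 in the first set (adjusted p = 0.0187) and -0.51 ± 0.17 over all libraries (adjusted p = 0.21). Tmem252 measured 17.8, 18.2, 16 and 21.7 CPM, then 37.5 CPM in mouse 5105, against 32.1 to 36.7 CPM (first-set log2 fold change -0.88, adjusted p = 0.0963). The label gives mouse 5105 the same treatment as the other 4.

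**Figure D3:**
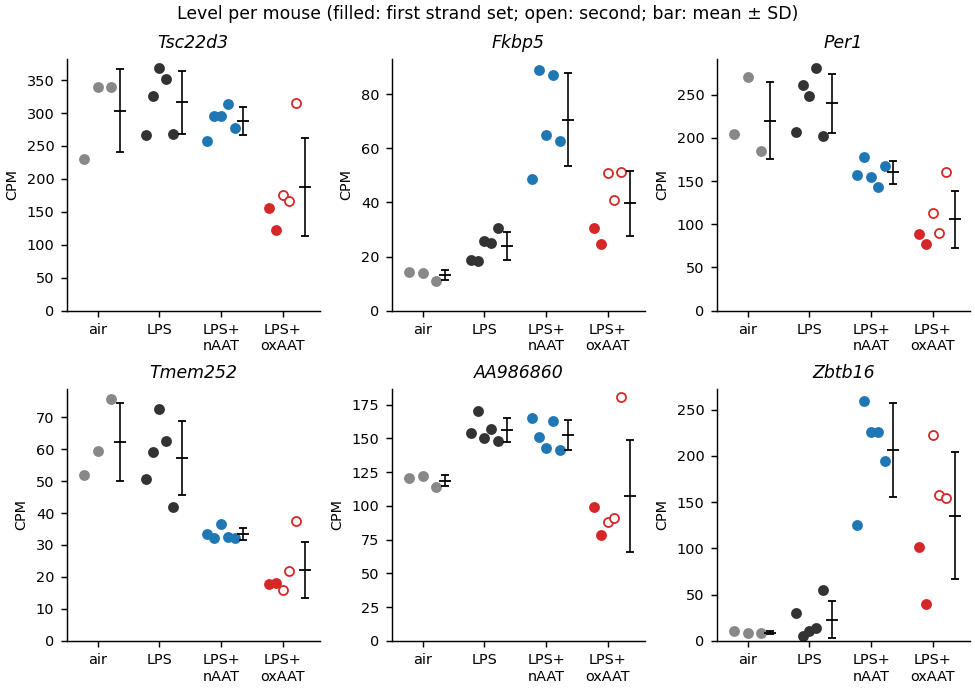
Level of 6 genes in each mouse, in CPM on an axis that starts at 0, by group, with the mean ± SD as a black bar and open points for the second strand set. For Tsc22d3, Tmem252 and AA986860, 4 oxAAT mice lie below the nAAT mice and mouse 5105 lies above them, at 315, 37.5 and 181 CPM.

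Besides Meis1 and Nr2f2, the genes called higher included further transcription factors. Foxp1, a forkhead repressor of lung epithelium and endothelium, measured 177, 142, 186, 167 and 171 CPM in the oxAAT mice and 111, 113, 118, 118 and 112 CPM in the nAAT mice, a log2 fold change of 0.56 ± 0.10 (adjusted p = 0.0213). Ahr, the aryl hydrocarbon receptor, rose by 0.68 (adjusted p = 0.0437) and Gata3, the factor of type 2 lymphocytes, by 0.54 (adjusted p = 0.0495). Sox4 rose by 0.86 (adjusted p = 0.0262), with 60.9 to 92.0 CPM against 35.9 to 51.1 CPM, and a share of 0.546 of its exon bases lies opposite another gene. Ccn1, a matricellular protein induced by YAP signalling, measured 116, 187, 135, 147 and 102 CPM against 95, 78.8, 66.4, 75.0 and 77.9 CPM. The groups did not overlap, and Ccn1 rose by 0.81 (SE 0.15, adjusted p = 0.0262), with 0.96 ± 0.17 (adjusted p = 0.052) in the first set. Tnfsf10, which encodes the death ligand TRAIL, was higher by 0.61 (adjusted p = 0.0437) but overlapped through mouse 5102 at 148 CPM. The first-set estimates of Foxp1, Ahr, Gata3, Sox4 and Tnfsf10 were 0.49, 0.53, 0.66, 0.61 and 0.48, and none passed (adjusted p = 0.263, 0.564, 0.351, 0.574 and 0.619). The endothelial marker list gave no call among 18 genes, where 0.344% of all genes were called. Its median was 0.14, and 15 of the 18 estimates were positive. At an unadjusted p under 0.05, 2 were higher, against 6.06% of all genes, and 3 were in the first set, against 3.73%.

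**Figure D4:**
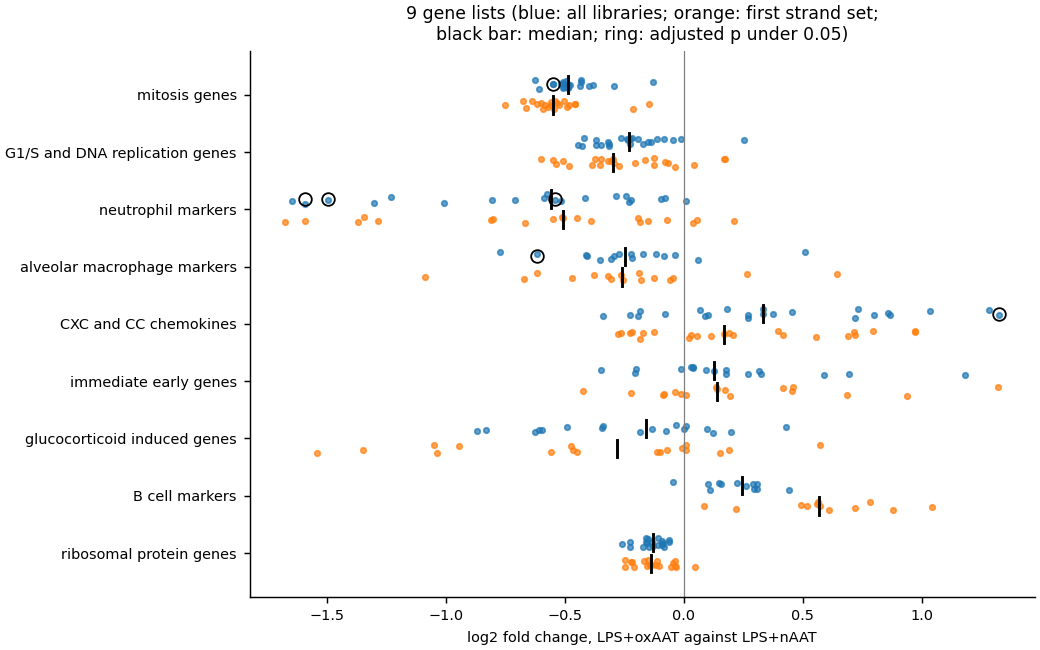
Log2 fold change of oxAAT against nAAT for each member of 9 gene lists, over all libraries (blue) and in the first strand set (orange), with medians as black bars and rings on the genes that passed. Members of the mitosis list lie to the left of 0 throughout, with medians of -0.49 and -0.55, and the B cell medians are 0.24 and 0.57.

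Alb and Serpina3k, genes of secreted liver proteins, were called higher at very low levels. Alb measured 7.64, 2.23, 6.47, 1.07 and 2.44 CPM in the oxAAT mice and 0.394, 0.848, 0.712, 0.855 and 0.907 CPM in the nAAT mice (log2 fold change 2.41 ± 0.53, adjusted p = 0.0495). Serpina3k was at most 2.56 CPM and had a log2 fold change of 3.92 (adjusted p = 0.0466). In a list of 10 liver genes put together after these values were seen, 2 of the 9 tested were called, against 0.216% of all genes called higher, and 8 were higher at an unadjusted p under 0.05, against 6.06%. The list was built from the pattern it describes, so these counts are no support for it. Alb and Serpina3k had first-set estimates of 2.72 and 4.30 and did not pass (adjusted p = 0.235 and 0.212). The summed level was 25.3, 10.9, 22.2, 7.72 and 9.30 CPM in the oxAAT mice and 5.81 to 9.72 CPM in the nAAT mice, and it reached 25.4 CPM in an air mouse. Mice 5101 and 5103 were the highest of the oxAAT mice. Heart muscle markers, at 55.2 to 843 CPM against 48.9 to 641 CPM, and adipocyte markers, at 22 to 56.5 CPM against 13.4 to 34.0 CPM, varied widely in both groups. Their estimates leaned higher in the oxAAT mice, as 9 of 10 heart and 7 of 7 adipocyte genes were positive. Median log2 fold changes were 0.76 for heart and 1.02 for adipocyte markers, and 1.07 and 1.24 in the first set. None of 10 and none of 7 genes was called at an adjusted or an unadjusted p under 0.05, where 0.344% and 11.8% of all genes were. The part of such tissue in the results was not tested.

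B cell markers differed within the oxAAT mice. None of 12 was called in either analysis. Of the 12, 10 were higher in the first set at an unadjusted p under 0.05, where 3.73% of all genes were, and the median log2 fold change was 0.57, whereas over all libraries 1 of 12 was and the median was 0.24. The summed level was 262, 424, 233, 238 and 164 CPM in the oxAAT mice and 267, 227, 222, 189 and 269.9 CPM in the nAAT mice. Mouse 5102 was the high sample, so the first-set value rests on that mouse, and the part of B cells in other first-set results was not tested.

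Of the 37 genes called higher, 13 also differed between the sets within the oxAAT mice (adjusted p under 0.05 in a model with the oxAAT group split), and of the 22 called lower none did. Between the sets, 0.539% of all genes differed, 0.481% higher and 0.0573% lower in the second set. These 13 include Syn3, a synapsin gene, which measured 1.44 and 0.768 CPM in mice 5101 and 5102, 7.87, 10.3 and 9.86 CPM in mice 5103 to 5105, and 0.939 to 1.62 CPM in the nAAT mice. Only the second set was high, and the estimate changed sign from 2.22 over all libraries to -0.24 in the first set. Prrg1 measured 10.8 and 9.03 CPM in the first set and 19.7 to 24.8 CPM in the second, against 6.24 to 8.42 CPM. The long noncoding RNA Gm26669 had no count in mice 5101 and 5102 and 7.76 to 11.6 CPM in mice 5103 to 5105, and a share of 0.925 of its exon bases lies opposite another gene. In all, 17 of the 37 higher genes (45.9%) and 4 of the 22 lower genes (18.2%) have exon bases opposite another gene, compared with 30.3% of all genes tested. Whether reads of the 2 strands were told apart in every library was not tested, and the strand setting of the counting is not given in the sources used here.

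**Figure D5:**
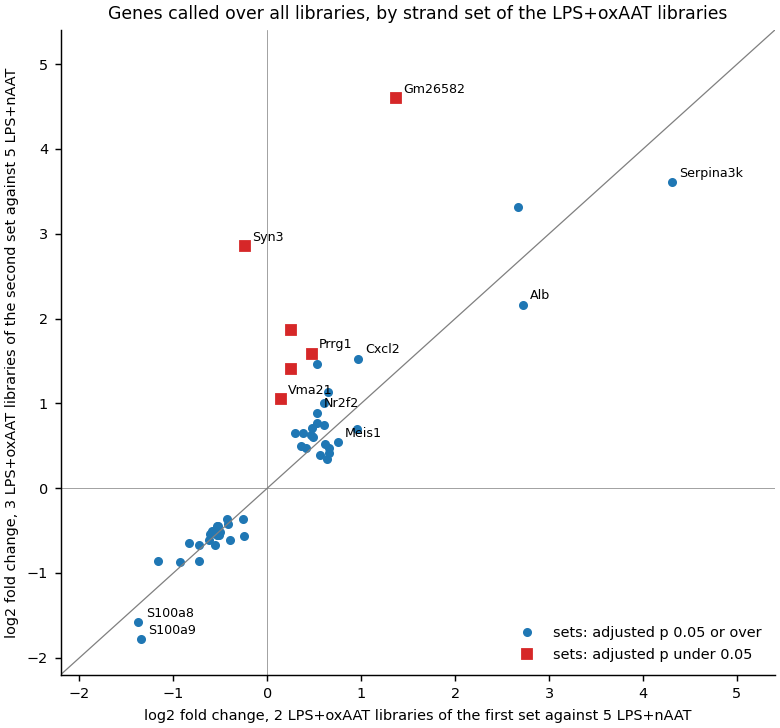
Log2 fold change against the 5 nAAT mice of the 2 oxAAT libraries of the first set (horizontal axis) and of the 3 oxAAT libraries of the second set (vertical axis), for the 52 called genes tested in both, with the line of equal values. Red squares are genes that differ between the sets; they lie above the line, while genes called lower, such as S100a8 and S100a9, lie near it.

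Compared with the 3 oxAAT mice of the second set alone, 406 genes passed against the nAAT mice (2.33%), 341 higher (1.95%) and 65 lower (0.372%). The first set with 2 oxAAT mice gave 2. The median SE of a log2 fold change was 0.133 over all libraries and 0.177 in the first set. The estimate in the first set was at least 0.5 times that over all libraries, with the same sign, for 45 of the 59 genes.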

How the data were processed

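The authors deposited whole-number counts for each Ensembl gene, without normalization. Per the labels' protocols, libraries were made from lung RNA with a stranded poly(A) kit. Alignment with STAR 2.4.0.1 to GRCm38, counting with HTSeq 0.11.1, trimming with Trimmomatic (0.36 and 0.38) and FastQC 0.11.8 are named in the submitters' processing notes, with strand setting and annotation not given in the sources used here. Of its lines, 41388 are genes; 5 summary lines stayed out of library sizes, and reads on no feature were 6.79% to 10.3% of those tallied in the 10 libraries compared. Symbols, positions and exons opposite another gene came from GENCODE mouse release M21 (40340 IDs matched).

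All 23 libraries were fitted in edgeR 4.0.16 (R 4.3.3) with a mean per group, TMM scaling, filterByExpr and robust quasi-likelihood F tests, two-sided, with Benjamini-Hochberg adjustment. CPM values are TMM-scaled, log2 fold changes are LPS+oxAAT against LPS+nAAT, and ± is the SE for these and the SD for levels. The test was repeated on the 15 libraries with mt-Nd6 at or under 2% of mt-Nd5. Lists are given by counts and medians, with no set test; 5 listed genes had no match. Promoters are RefSeq's on GRCm38.p6. The fit was tested on simulated data.

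The comparison and the lists were chosen with earlier results of these data known. Genes named are those called in both fits, and the 5 per direction with the largest change called over all libraries alone whose levels do not overlap. Also named are up to 5 per direction called in the first set alone, a fixed panel, and the 4 members of a list with the smallest p. The rest were named after their values were seen. Same-numbered mice did not deviate together in every pair (correlations -0.018 to 0.42), so mice were not paired. Nothing says how mice shared cages or litters, so each p-value reflects only how these mice varied. No 2 libraries within the nAAT group or within the oxAAT group were duplicates (chi-square per degree of freedom at least 15.5). Other pairs were not compared in this way. Alternatives were DESeq2 1.42.0, limma 3.58.1 (voom), other scalings and filters, a set term, a replicate block, the 2 groups alone, and leaving out each mouse.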

Additional observations from a re-analysis of the deposited data

Results flagged for a closer look

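Single mice stood far from the other 4 of their group in 13 of 162 gene and group pairs examined, measured as a gap to the nearest mouse that is large against the range. Chance gives about 1 in 20 for independent values. Many of the genes examined were picked from results of these same mice, and genes of 1 mouse can move together. That rate is therefore no baseline for the 13. Of the 13, 7 were oxAAT mouse 5105, at 315 CPM for Tsc22d3 (others 123 to 175), 181 CPM for AA986860, 37.5 CPM for Tmem252, 153 CPM for Errfi1, 30.2 CPM for Csrnp1, 39.5 CPM for Mki67 and 8.71 CPM for Knstrn, each the highest of its group. OxAAT mouse 5103 was high for Klf10 (62.5 CPM) and oxAAT mouse 5102 was low for Tnfsf10 (148 CPM, others 191 to 207). Among the nAAT mice, 4102 was high for Angptl4 (69.2 CPM), 4103 was high for Tmem252 (36.7 CPM) and low for Il6 (0.0419 CPM), and 4101 was high for Zxdb (6.78 CPM).

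Of the 48 called genes that have a symbol and are no predicted gene, 4 differed between the oxAAT mice of the second and the first strand set, by 3.11 on the log2 scale for Syn3, 1.16 for Zxdb, 1.12 for Prrg1 and 0.92 for Vma21 (edgeR, adjusted p = 1.16e-05, 0.0322, 0.0353 and 0.0102). Vma21 had a log2 fold change of 0.14 against the nAAT mice in the first set and 1.05 in the second.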

How the results depend on the processing

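Over all libraries the 59 calls became 3 at an adjusted p of 0.01, 25 with no filter beyond 1 count, 241 with DESeq2's Wald test, 1073 with limma voom and quality weights, and 10 with only the 2 groups in the fit. Strand set as a term left 1 (Meis1), the first set only 2, and the oxAAT mice of the second set only 406. Leaving out 1 mouse gave 3 (without 5104) to 275 (without 5102), with 19, 6, 5, 4 and 24 calls without nAAT mice 4101 to 4105 in turn, and 66, 5 and 41 without oxAAT mice 5101, 5103 and 5105. DESeq2 size factors (53), library totals (53), the stricter filter (55) and a dispersion that was not robust (62) stayed within 1.5 times. In the first set the 2 calls became 1 at 0.01, 9 with DESeq2 size factors, 48 with DESeq2, 7 with voom, 13 with the 2 groups alone, 1 with the set term and 0 to 7 when 1 mouse was left out (0 without 5102, 7 without 5101). A replicate block on the last digit of the mouse number, a shared number and not a known pairing, gave 24 calls over all libraries and 0 in the first set with edgeR, where 6.71% of genes had an unadjusted p under 0.05 without the block. Syn3 turned from 2.22 to -0.260 with the set term and -0.243 in the first set. The median log2 fold change of the mitosis list ran from -0.55 to -0.40 and that of the neutrophil list from -0.61 to -0.40 when 1 mouse was left out. Other choices of scaling moved the median of all genes by at most 0.0071. Causes of these shifts were not tested, apart from fewer mice or a stricter threshold where the setting itself makes that change. The smallest change called over all libraries was that of Ctsh (-0.32), and the 2 oxAAT mice of the first set limit what could be called there.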

Other observations

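Ribosomal protein genes moved little but in 1 direction: 20 of 20 had a negative estimate, with a median log2 fold change of -0.13. None was called, where 0.344% of all genes were. Serpina1b, a mouse gene of the AAT family, measured 4.54 to 6.76 CPM in the oxAAT mice and 4.09 to 7.46 CPM in the nAAT mice (log2 fold change -0.13, adjusted p = 0.857). The paralogs of this family are near-identical, so counts may be split among them. Hspa1a, an inducible heat shock chaperone, was at 18.1 CPM in oxAAT mouse 5105 and at 1.39 to 2.33 CPM in the other 4. Csf1, the macrophage growth factor, measured 77.3 to 89.0 CPM in the oxAAT mice and 62.2 to 73.2 CPM in the nAAT mice, without overlap (log2 fold change 0.33, adjusted p = 0.0841).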
